A study of Mus musculus with 4 samples.

Results

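Transcripts of 8 genes of the neutrophil primary granule and of the promyelocyte, the granulocyte precursor that makes those granules, were followed in 3 mouse leukemias and in normal bone marrow. The genes were Mpo, Elane, Prtn3, Ctsg, Fcnb, Ms4a3, Prss57 and Ctsc, and a probe set counted as a member if the platform annotation gave it exactly 1 gene and that gene was in this list. This found 9 probe sets for 7 of the 8 genes, of 18193 genes with such a probe set. No probe set carried the symbol Prss57, which is not analysed here. Each group was 1 sample on 1 array. The mixed lineage leukemia came from hematopoietic stem or precursor cells transduced with both AF4-MLL and MLL-AF4, the reciprocal fusions of MLL, a methyltransferase of histone H3, and AF4, a subunit of the super elongation complex. The leukemias labelled proB ALL and B/T BAL (a biphenotypic acute leukemia) came from such cells transduced with AF4-MLL alone, so that all 3 leukemias carried AF4-MLL. The last sample was normal marrow without either fusion. The series title names C57BL6 mice, and marrow was taken from moribund animals after several months. The leukemias were typed by flow cytometry but the marrow was not sorted, and resident marrow cells may be part of each leukemia sample. The promoter that drove the fusions and the ages of the mice are not stated in the labels. No group had a replicate, and no value of a single array has a replicate error.

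Neutrophils store ready-made proteins in granules that form in a fixed order. Primary (azurophil) granules form in promyelocytes and hold myeloperoxidase and a family of serine proteases, secondary granules form in myelocytes, and tertiary granules form in later cells. The serine proteases are made as inactive precursors and become active when cathepsin C, the product of Ctsc, removes a dipeptide from their amino terminus. Transcription of primary granule genes is switched on with commitment to the granulocyte and monocyte lineage and ends as promyelocytes mature, which makes these transcripts markers of a narrow stage. The factors PU.1 (Spi1), C/EBP alpha (Cebpa) and c-Myb (Myb) are known to act on the promoters of several of these genes.

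Values are MAS5 signals, 1 per probe set on a linear scale and scaled alike on all 4 arrays. On the arrays, 46.4% to 57.5% of probe sets exceeded 189, the median of all signals, which served as a floor below which signals were treated as dim. The highest share was that of the mixed lineage array. The ratio between the 3' and 5' probe sets of Actb, which grows as RNA degrades, was 3.10 on the mixed lineage array, 2.47 on the proB ALL array and 4.72 on the B/T BAL array, against 1.87 in normal marrow. The same ratio for Gapdh was 1.24 (mixed lineage), 1.28 (proB ALL) and 1.14 (B/T BAL), against 0.944 (normal marrow). Actb and Gapdh thus ranked the leukemia arrays differently. The part of RNA quality in the results was not tested. The labels were set against marker lists. B-cell markers had a summed signal of 7197 on the mixed lineage array, 3952 on the proB ALL array and 1210 on the B/T BAL array, against 29481 in normal marrow, so the array labelled proB ALL did not carry more B-cell marker signal than normal marrow. Vpreb1, a surrogate light chain gene that defines early B cells, was below the floor on all 3 leukemia arrays, against 11111 in normal marrow. Some B-cell genes were still above it: 3 of 7 exceeded the floor on each leukemia array, against 6 in normal marrow. Cd79b had 3051 (mixed lineage), 2484 (proB ALL) and 352 (B/T BAL), against 6035 (normal marrow). T-cell markers had a summed signal of 2005 (mixed lineage), 45234 (proB ALL) and 153394 (B/T BAL), against 3472 (normal marrow). Of the 7 T-cell genes, 4 (mixed lineage), 3 (proB ALL) and 7 (B/T BAL) exceeded the floor, against 5 in normal marrow. The largest signals in the proB ALL sum were those of Thy1 (28959) and Cd3d (12582). Normal marrow also held lineages whose summed marker signals were far lower on the leukemia arrays. Erythroid markers had a summed signal of 1237 (mixed lineage), 987 (proB ALL) and 2437 (B/T BAL), against 127833 (normal marrow), with median log2 differences of -6.48, -6.83 and -6.26 in those leukemias. Eosinophil markers had 2468 (mixed lineage), 335 (proB ALL) and 422 (B/T BAL), against 81523 (normal marrow), and megakaryocyte markers 2542 (mixed lineage), 1887 (proB ALL) and 2215 (B/T BAL), against 32017 (normal marrow). Of the 5 megakaryocyte genes, 5 (mixed lineage), 3 (proB ALL) and 4 (B/T BAL) still exceeded the floor. The sums of macrophage markers were 11649 (mixed lineage), 13968 (proB ALL) and 5109 (B/T BAL), against 31033 (normal marrow), and those of stem and progenitor markers 6687 (mixed lineage), 2615 (proB ALL) and 1484 (B/T BAL), against 7144 (normal marrow). The cell make-up of the normal sample thus differs from that of the leukemias, and its part in each difference from normal marrow below was not tested. Log2 differences below were taken after adding a pseudocount of 51.4 to each signal (their 25th percentile), which understates the change of dim genes. A gene counted as higher or lower on 1 array than on another at a difference of at least 2-fold on that scale. Genes below the floor everywhere were set aside, which left 14012. All 7 measured member genes passed that filter, and their main probe sets exceeded the floor on all 4 arrays.

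Of the 7 genes, 6 shared a pattern: signals above normal marrow on the mixed lineage array, and much lower signals on both AF4-MLL arrays. Ctsc did not share it. Except for Fcnb, the rise of these 6 genes on the mixed lineage array was within 2-fold. Mpo and Ctsg turned slightly below normal marrow on the mixed lineage array under quantile normalization. Mpo, which makes hypochlorous acid from hydrogen peroxide and chloride, had signals of 60520 on the mixed lineage array, 4035 on the proB ALL array and 12934 on the B/T BAL array, against 43969 in normal marrow. Mpo was thus 10.9-fold lower on the proB ALL array and 3.40-fold lower on the B/T BAL array than in normal marrow. In mixed lineage leukemia it was 1.38-fold higher, a log2 difference of 0.46 that turned to -0.17 under quantile normalization.

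Among the serine proteases, Elane (neutrophil elastase) had 32120 on the mixed lineage array, 2058 on the proB ALL array and 2699 on the B/T BAL array, against 20277 in normal marrow. Prtn3 (proteinase 3) had 36890 (mixed lineage), 3352 (proB ALL) and 7126 (B/T BAL), against 24518 (normal marrow). Ctsg (cathepsin G) had 32103 (mixed lineage), 3851 (proB ALL) and 3767 (B/T BAL), against 26268 (normal marrow). All 3 proteases were more than 2-fold lower on both AF4-MLL arrays than in normal marrow. Elane was 9.85-fold lower on the proB ALL array and 7.51-fold lower on the B/T BAL array, Prtn3 7.32-fold and 3.44-fold, and Ctsg 6.82-fold and 6.97-fold. On the mixed lineage array their log2 differences from normal marrow were 0.66, 0.59 and 0.29, within 2-fold, and that of Ctsg turned to -0.06 under quantile normalization.

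The remaining members with this pattern encode other products of the early granulocyte. Ms4a3, a membrane protein of granulocyte and monocyte progenitors in mouse, had 33775 on the mixed lineage array, 2575 on the proB ALL array and 2997 on the B/T BAL array, against 17970 in normal marrow. It was 1.88-fold higher than normal marrow in mixed lineage leukemia, just under the 2-fold limit with a log2 difference of 0.91, and passed the limit at 1.05 when arrays were scaled to their 75th percentile. Fcnb, which encodes ficolin B, a sugar-binding protein that starts the lectin pathway of complement, had 29035 on the mixed lineage array, 285 on the proB ALL array and 1343 on the B/T BAL array, against 6243 in normal marrow. Fcnb had the widest span of the members: 4.65-fold higher than normal marrow in mixed lineage leukemia, 21.9-fold lower on the proB ALL array and 4.65-fold lower on the B/T BAL array. In proB ALL its signal lay near the floor.

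**Figure D1:**
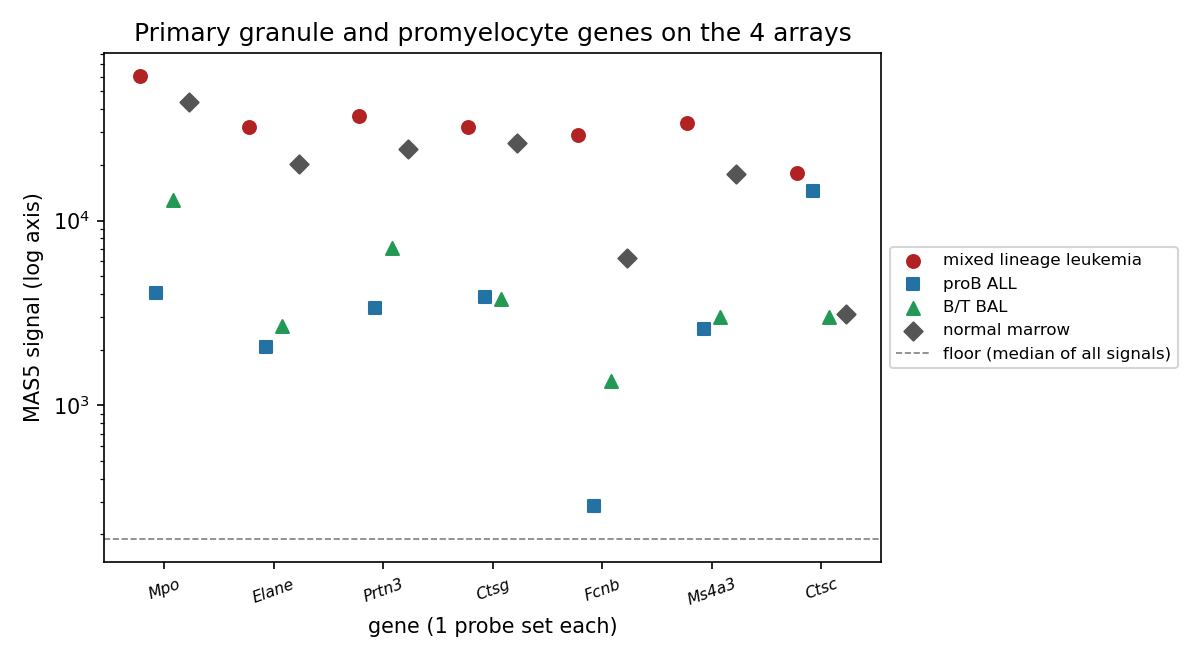
MAS5 signals (log axis) of the 7 measured genes on the 4 arrays, 1 point per array and the dashed line at the floor of 189. For 6 genes the mixed lineage and normal points lie above both AF4-MLL points, while the proB ALL point of Ctsc (14528) lies near that of mixed lineage leukemia (18017).

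Ctsc had 18017 on the mixed lineage array, 14528 on the proB ALL array and 3010 on the B/T BAL array, against 3099 in normal marrow. It was 5.81-fold higher than normal marrow in mixed lineage leukemia and 4.69-fold higher in proB ALL. The ratio of B/T BAL to normal marrow was 0.971. The order of its levels was therefore mixed lineage leukemia, proB ALL, normal marrow and B/T BAL. For Mpo, Elane, Prtn3, Fcnb and Ms4a3 the order was mixed lineage leukemia, normal marrow, B/T BAL and proB ALL, and Ctsg had this order with proB ALL and B/T BAL exchanged at a ratio of 1.02. With 1 array a group, no spread between replicates was at hand to say which neighbours in these orders differ.

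Ctsc was the 1 gene of the 7 with more than 1 probe set. The values above are of its brightest probe set. Another, whose name marks probes shared between transcripts, had 669 on the mixed lineage array, 392 on the proB ALL array and 159 on the B/T BAL array, against 198 in normal marrow. It showed the same order with smaller ratios to normal marrow, 3.38 in mixed lineage leukemia and 1.98 in proB ALL. The dimmest probe set exceeded the floor on the proB ALL array alone, at 72.4 (mixed lineage), 194 (proB ALL) and 99.7 (B/T BAL), against 181 (normal marrow). By that dim probe set the log2 difference between mixed lineage leukemia and normal marrow was -0.91, so the direction for Ctsc rests on the other probe sets.

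**Figure D2:**
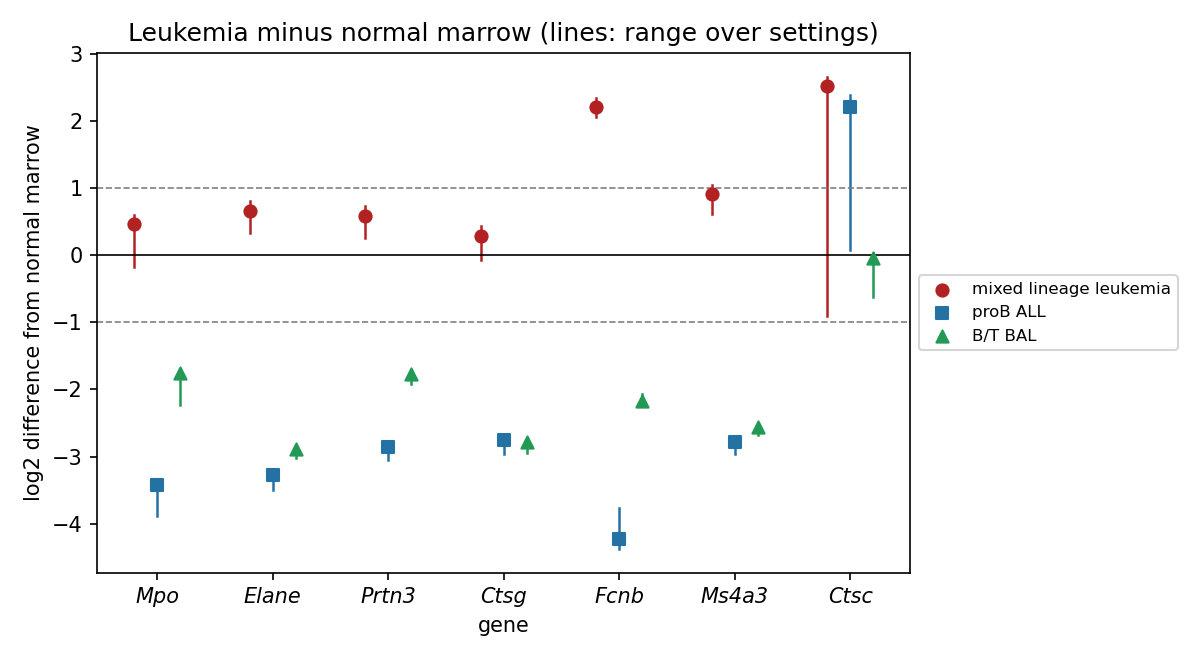
Log2 difference from normal marrow of each gene on each leukemia array, with dashed lines at 2-fold. Vertical lines span the processing settings and, for Ctsc, its other probe sets; they are not replicate errors. The 6 genes other than Ctsc lie between -4.23 and -1.76 on the AF4-MLL arrays and between 0.29 and 2.21 on the mixed lineage array, where the lines of Mpo and Ctsg cross 0 (quantile normalization).

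The counts were set against those of all genes tested. Against normal marrow, 2 of the 7 genes (Fcnb and Ctsc) were at least 2-fold higher and 0 lower in mixed lineage leukemia, where 18.8% of all tested genes were higher and 15.2% lower. In proB ALL 6 were lower and Ctsc higher, against 18.7% and 11.3% of all genes. In B/T BAL 6 were lower and 0 higher, against 17.7% and 15.4%. The median log2 difference over the 7 genes was 0.66 for the mixed lineage array, -2.85 for the proB ALL array and -2.17 for the B/T BAL array, beside 0.08, -0.11 and 0.05 over all tested genes. The combined pattern of the 6 genes, above normal marrow in mixed lineage leukemia and at least 2-fold below it on both AF4-MLL arrays, was found in 3.94% of tested genes, and its part on the AF4-MLL arrays alone, at least 2-fold below normal marrow on both AF4-MLL arrays, in 10.6%. All 7 genes had their highest signal on the mixed lineage array, as did 34.7% of tested genes. The pattern of Ctsc, at least 2-fold above normal marrow on the mixed lineage and proB ALL arrays and within 2-fold in B/T BAL, was found in 1.06%. Its part without the mixed lineage array, at least 2-fold above normal marrow in proB ALL and within 2-fold in B/T BAL, was found in 5.24%. These comparisons share the 1 normal array, in which the summed signals of erythroid, eosinophil and megakaryocyte markers were far higher than in any leukemia. In bulk RNA, fewer cells of a type and less RNA per cell cannot be told apart.

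The leukemia with both fusions was then set against those with AF4-MLL alone. Relative to B/T BAL, all 7 genes on the mixed lineage array were higher by 2-fold or more and 0 lower, beside 26.3% and 21.2% of all genes. Relative to proB ALL, 6 were higher and 0 lower, beside 27.3% and 15.7%. The same 6 genes were at least 2-fold above both AF4-MLL arrays, as were 18.9% of all genes. The ratios of mixed lineage leukemia to proB ALL were 15.0 for Mpo, 15.6 for Elane, 11.0 for Prtn3, 8.34 for Ctsg, 13.1 for Ms4a3 and 102 for Fcnb, but 1.24 for Ctsc. The same array over B/T BAL gave 4.68, 11.9, 5.18, 8.52, 11.3 and 21.6 for those 6 genes and 5.99 for Ctsc. A limma fit took each gene's spread between both AF4-MLL arrays (1 residual degree of freedom) and drew it toward a trend over all genes. Its standard errors and p-values thus do not measure the spread of those arrays alone. In that fit the log2 difference between mixed lineage leukemia and the AF4-MLL leukemias was 5.41 ± 0.95 for Fcnb, 3.74 ± 0.49 for Elane, 3.58 ± 0.47 for Ms4a3, 3.06 ± 0.47 for Ctsg, 3.06 ± 0.82 for Mpo, 2.90 ± 0.64 for Prtn3 and 1.44 ± 1.0 for Ctsc (moderated standard error). None passed limma's adjusted threshold of 0.05. The adjusted p was between 0.151 and 0.187 for the 6 genes and 0.502 for Ctsc, and 0 of 14012 genes passed. At an unadjusted p under 0.05 the 6 genes were higher, as were 12.3% of all tested genes, and 0 members were lower, as were 5.47%. Immunophenotype and fusion differ between these arrays together and cannot be told apart.

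Against normal marrow, the mean of the 3 leukemias passed limma's adjusted threshold for 0 of the 7 genes, with an adjusted p of 0.9999 for each (2 residual degrees of freedom, the lone normal array assumed to vary like the leukemias). The log2 difference was between -1.83 (Elane) and -1.35 (Prtn3) for the 6 genes and 1.56 for Ctsc, with standard errors of 1.02 to 2.05 and unadjusted p-values of 0.165 to 0.516. Over all genes 0 passed the adjusted threshold, and 0.314% were higher and 2.63% lower at an unadjusted p under 0.05.

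The AF4-MLL leukemias were not alike for every member. Mpo had a signal of 4035 in proB ALL against 12934 in B/T BAL, a log2 difference of -1.67, and Prtn3 (-1.08) and Fcnb (-2.05) were also at least 2-fold lower in proB ALL, where 15.9% of all genes were. Elane (-0.38), Ms4a3 (-0.22) and Ctsg (0.03) lay within 2-fold between them. Ctsc was 4.83-fold higher in proB ALL, as were 10.5% of all genes at 2-fold or more. Elane and Prtn3 lie next to each other on chromosome 10 of the mouse RefSeq annotation, and still Prtn3 was 2.13-fold higher in B/T BAL than in proB ALL while Elane was 1.31-fold higher.

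Promoter sequences are shown for the neighbouring protease genes, for Mpo and Fcnb, which share their pattern, and for Ctsc, which does not. The RefSeq promoter table of build GRCm38.p6 held 7 of the 8 genes. Each line gives the 250 bases before the annotated start, 5′ to 3′ on the strand of the gene, with matches to GGAAGT, the core bound by PU.1 and other ETS factors, in capitals on either strand.
Mpo (chr11:87793534-87793783, plus strand): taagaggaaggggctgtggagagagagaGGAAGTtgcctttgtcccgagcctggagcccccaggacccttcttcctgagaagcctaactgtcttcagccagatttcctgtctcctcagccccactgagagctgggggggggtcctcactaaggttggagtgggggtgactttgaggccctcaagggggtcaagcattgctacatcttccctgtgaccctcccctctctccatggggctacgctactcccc
Elane (chr10:79886062-79886311, plus strand): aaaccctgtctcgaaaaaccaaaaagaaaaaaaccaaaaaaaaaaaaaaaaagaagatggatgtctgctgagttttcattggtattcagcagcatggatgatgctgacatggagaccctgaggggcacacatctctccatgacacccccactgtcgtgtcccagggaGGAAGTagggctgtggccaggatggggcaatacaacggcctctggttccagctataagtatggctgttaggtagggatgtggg
Prtn3 (chr10:79879417-79879666, plus strand): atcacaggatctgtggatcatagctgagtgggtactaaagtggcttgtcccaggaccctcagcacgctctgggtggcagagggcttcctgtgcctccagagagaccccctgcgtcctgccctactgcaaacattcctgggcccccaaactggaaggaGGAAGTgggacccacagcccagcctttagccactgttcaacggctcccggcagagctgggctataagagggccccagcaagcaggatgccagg
Fcnb (chr2:28084879-28085128, minus strand): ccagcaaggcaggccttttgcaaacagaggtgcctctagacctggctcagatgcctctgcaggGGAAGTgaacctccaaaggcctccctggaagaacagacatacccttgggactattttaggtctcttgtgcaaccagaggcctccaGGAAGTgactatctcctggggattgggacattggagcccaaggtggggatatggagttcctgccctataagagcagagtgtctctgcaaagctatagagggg
Ctsc (chr7:88277835-88278084, plus strand): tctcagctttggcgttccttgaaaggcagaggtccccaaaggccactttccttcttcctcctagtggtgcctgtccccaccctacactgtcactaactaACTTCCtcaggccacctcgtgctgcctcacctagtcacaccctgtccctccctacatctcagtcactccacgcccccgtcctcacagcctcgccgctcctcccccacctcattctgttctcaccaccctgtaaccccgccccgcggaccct

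GGAAGT on either strand was found in all 7 member promoters, against 19.7% of the 32851 windows of the same length in the table. It stood 83 bases before the start in Elane and 93 bases before it in Prtn3, 222 in Mpo, 205 in Ctsg and 55 in Ms4a3, and at 187 and 102 in Fcnb. In Ctsc it lay 151 bases before the start on the other strand, so the match did not separate Ctsc from the rest. CAACGG, a MYB core, was found in the Elane and Prtn3 windows alone (4.05% of all windows), at 51 and 56 bases before the start. TATAAG, a form of the box that places the start of transcription, was found in Elane, Prtn3 and Fcnb at 31, 32 and 37 bases before the start (6.65% of all windows). TTGCNNAA, a C/EBP form, was found in Fcnb alone, on the other strand at 235 and 123 bases before the start (9.56% of all windows). The 4 motifs were searched on both strands, did not overlap one another here, and were chosen with these sequences in view. A match is a run of letters and not a measured binding site.

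**Figure D3:**
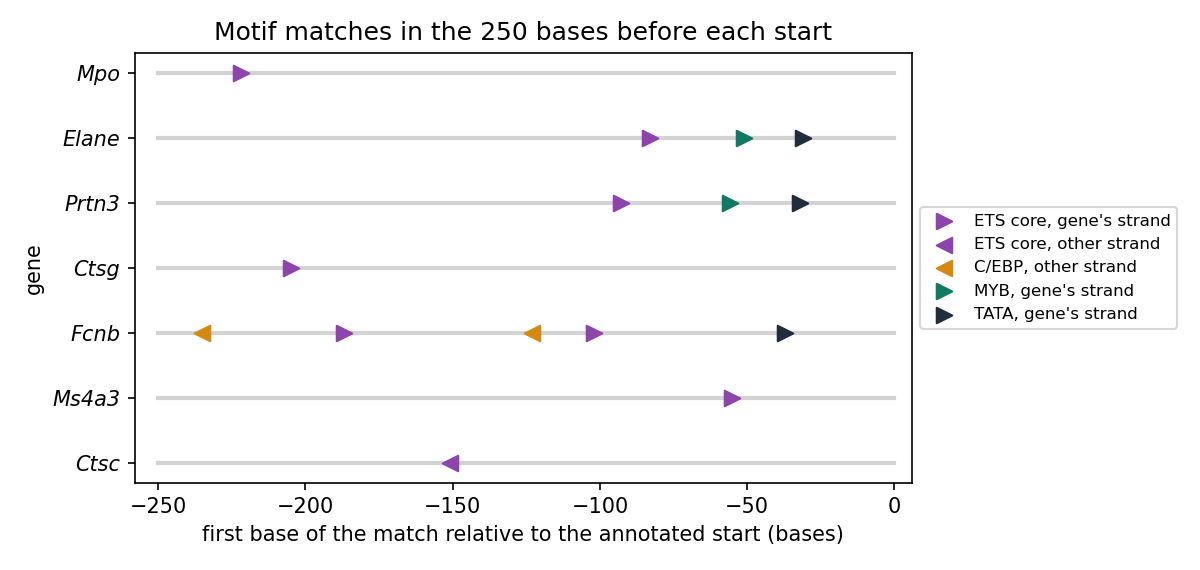
Motif matches in the 250 bases before the annotated start of the 7 genes, as distance of the first base from the start (bases), with arrowheads for the strand. Elane and Prtn3 carry the same 3 motifs in the same order, with the ETS core at 83 and 93 bases, the MYB core at 51 and 56 and TATAAG at 31 and 32.

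Regulators of the promyelocyte split into genes that followed the granule genes and genes that did not. Of 10 measured regulators, 2 were at least 2-fold higher than normal marrow and 0 lower in mixed lineage leukemia, 0 higher and 6 lower in proB ALL, and 2 higher and 6 lower in B/T BAL, with median log2 differences of 0.58 (mixed lineage), -1.59 (proB ALL) and -1.47 (B/T BAL). Spi1, which encodes PU.1, had signals of 7257 on the mixed lineage array, 612 on the proB ALL array and 1208 on the B/T BAL array, against 3444 in normal marrow. Cebpa had 3786 (mixed lineage), 407 (proB ALL) and 529 (B/T BAL), against 1948 (normal marrow), and Cebpd, another C/EBP factor, had 10712 (mixed lineage), 682 (proB ALL) and 787 (B/T BAL), against 8118 (normal marrow). Klf4, a factor of monocyte formation, had 7885 (mixed lineage), 403 (proB ALL) and 834 (B/T BAL), against 3723 (normal marrow). Cebpb, also of the C/EBP family, had 12491 (mixed lineage), 2243 (proB ALL) and 3582 (B/T BAL), against 10002 (normal marrow). These 5 genes thus had the order of signals seen for Mpo and Elane. Irf8, another factor of the monocyte lineage, had 6631 (mixed lineage), 5789 (proB ALL) and 1789 (B/T BAL), against 8222 (normal marrow), and was at least 2-fold lower in B/T BAL alone. Myb did not have the order of Mpo and Elane either: it had 13116 on the mixed lineage array, 8330 on the proB ALL array and 18694 on the B/T BAL array, against 17444 in normal marrow. It was at least 2-fold lower than normal marrow in proB ALL alone, at a log2 difference of -1.06. Gfi1, a repressor needed for granulocyte formation, had 5688 in B/T BAL against 2039 in normal marrow, and Runx1 had 1440 against 576, both at least 2-fold higher there. Cbfb, the partner of Runx1, lay within 2-fold of normal marrow on all 3 leukemia arrays. Of the 10 regulators, 0 passed limma's adjusted threshold in either fit.

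Receptors through which myeloid growth factors act were lower on the AF4-MLL arrays as well. In mixed lineage leukemia 0 of the 6 were at least 2-fold higher or lower than normal marrow, while all 6 were lower on the proB ALL array and 5 on the B/T BAL array. Csf3r, the receptor of the granulocyte factor G-CSF, had 4651 on the mixed lineage array, 296 on the proB ALL array and 976 on the B/T BAL array, against 9225 in normal marrow, a log2 difference of -0.98 on the mixed lineage array. Csf2rb, the shared chain of the GM-CSF, IL-3 and IL-5 receptors, had 20156 (mixed lineage), 3218 (proB ALL) and 3666 (B/T BAL), against 10433 (normal marrow).

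A list of genes for the secondary granule, which forms after the primary one, was compared next. Its members are called secondary granule genes after that list, and whether their proteins lie in the granule was not measured. In proB ALL all 10 secondary granule genes were at least 2-fold lower than normal marrow, and their median log2 difference was -3.99 beside -2.85 for the 7 primary granule and promyelocyte genes. In B/T BAL 5 of the 10 were lower and 0 higher, with a median of -0.98, which was -1.25 under quantile normalization, beside -2.17 for the 7 genes. Ngp, a secondary granule protein, had 96357 on the mixed lineage array, 18230 on the proB ALL array and 71421 on the B/T BAL array, against 57676 in normal marrow. Camp (cathelicidin) had 86950 (mixed lineage), 11586 (proB ALL) and 41362 (B/T BAL), against 47614 (normal marrow), and Lcn2, an iron-chelate binding protein, had 91500 (mixed lineage), 8252 (proB ALL) and 41015 (B/T BAL), against 48409 (normal marrow). These are among the brightest genes of the list, and in B/T BAL they lay within 2-fold of normal marrow. The 5 genes that were lower there, named after their values were seen, were Olfm4 (-3.42), Mmp8 (-3.02), Cd177 (-1.95), Itgb2l (-1.94) and Padi4 (-1.19) as log2 differences between B/T BAL and normal marrow. These overlap the values of Mpo (-1.76) and Elane (-2.89), so the secondary granule genes did not behave alike on that array. Between proB ALL and B/T BAL, all 10 secondary granule genes were at least 2-fold lower in proB ALL, beside 3 of the 7 primary granule and promyelocyte genes. The difference between the lists was not tested.

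Genes of the tertiary granule and mature neutrophil had a median log2 difference from normal marrow of 0.28 for the mixed lineage array, -3.49 for the proB ALL array and -1.65 for the B/T BAL array. S100a8 and S100a9, which make calprotectin, stayed within 2-fold of normal marrow on all 3 arrays, with S100a8 at 117723 (mixed lineage), 39668 (proB ALL) and 96616 (B/T BAL), against 69267 (normal marrow). Mmp9, the gelatinase of tertiary granules, had 27224 (mixed lineage), 1951 (proB ALL) and 7074 (B/T BAL), against 22377 (normal marrow). On the mixed lineage array the monocyte list stood further from normal marrow than any granule list, with 6 of 7 genes at least 2-fold higher and a median of 1.61. F13a1, a coagulation factor of monocytes, had 39455 on the mixed lineage array, 738 on the proB ALL array and 5670 on the B/T BAL array, against 12879 in normal marrow. The monocyte genes did not all fall on the AF4-MLL arrays: 1 was at least 2-fold higher and 5 lower in proB ALL, and 1 higher and 4 lower in B/T BAL. Ccr2, the gene that was higher in proB ALL, had 11910 there, against 8925 in mixed lineage leukemia and 3169 in normal marrow. The summed signal of the monocyte list was 122667 (mixed lineage), 19221 (proB ALL) and 17446 (B/T BAL), against 37734 (normal marrow), and 6 or more of its 7 genes exceeded the floor on every array. Its part in the results for the primary granule genes was not tested.

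**Figure D4:**
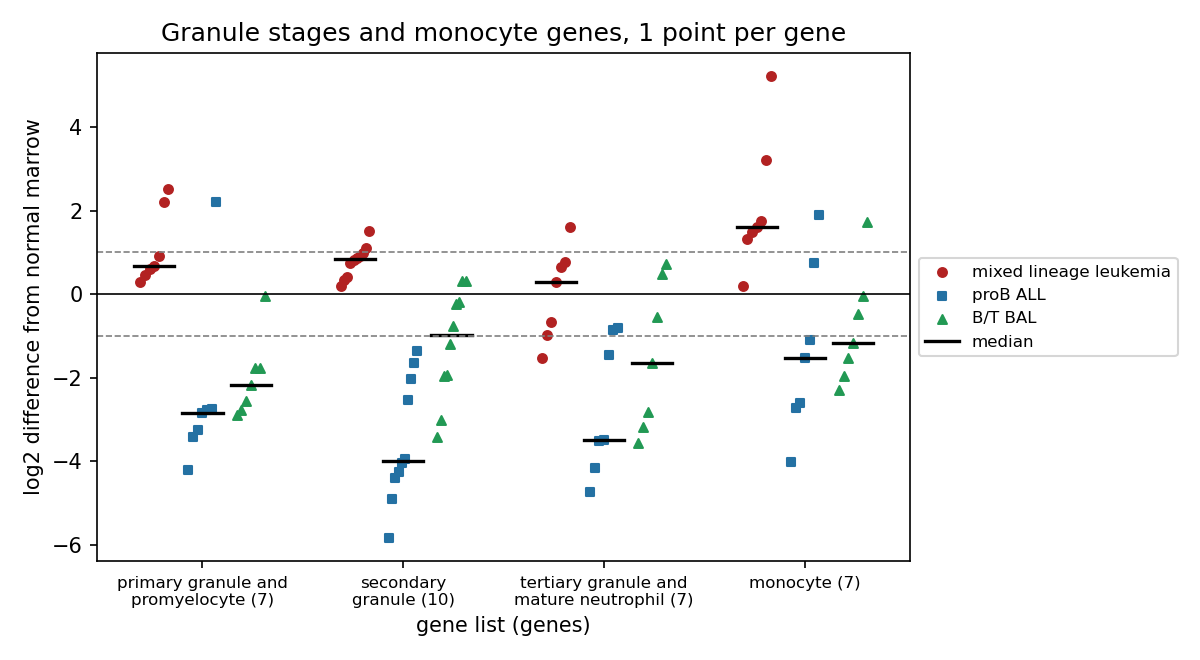
Log2 difference from normal marrow of the genes tested in each list, 1 point per gene and bars at the medians, for the 3 leukemia arrays. In B/T BAL the secondary granule genes have a median of -0.98 and the primary granule and promyelocyte genes -2.17; in proB ALL the medians are -3.99 and -2.85.

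Markers of basophils and mast cells were set beside Fcnb, whose signals had a like order. Mcpt8, a basophil protease, had 39892 on the mixed lineage array, 238 on the proB ALL array and 1478 on the B/T BAL array, against 9174 in normal marrow. Fcer1a, a chain of the IgE receptor, had 6821 (mixed lineage), 45.8 (proB ALL) and 252 (B/T BAL), against 1645 (normal marrow). Of 5 tested genes of that list, 4 were at least 2-fold higher than normal marrow in mixed lineage leukemia and 0 lower. In proB ALL 1 was higher and 4 lower, and in B/T BAL 0 were higher and 3 lower, so not all of them followed Fcnb. Cpa3 of that list had 2567 in B/T BAL against 2559 in normal marrow. The summed signal of the 6 genes of the list was 58601 (mixed lineage), 1664 (proB ALL) and 4783 (B/T BAL), against 14978 (normal marrow). In those leukemias 4, 3 and 3 genes exceeded the floor, and 4 did in normal marrow. By Euclidean distance between log2 profiles over the 4 arrays, each centred on its own mean, the genes nearest to Fcnb were Fcer1a (0.32), Hdc (0.50), the histidine decarboxylase of basophils and mast cells, and Ms4a2 (0.56), another chain of the IgE receptor. Ms4a2 lay below the floor on both AF4-MLL arrays, and Fcer1a and Hdc did in proB ALL. Whether basophils or their precursors contributed to the Fcnb signal was not tested.

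The other members had other nearest genes by the same measure. Mpo was nearest to Tbc1d8 (0.15) and Mmp9 (0.21), Elane to Gda (0.25) and Wipi1 (0.25), Prtn3 to Fer (0.10) and Pirb (0.11), an inhibitory receptor of myeloid cells, Ctsg to Ifnlr1 (0.20), and Ms4a3 to Stxbp6 (0.11) and Tmem38b (0.13). Nearest to the mean profile of the 7 genes were Dram1 (0.11), Hgd (0.13) and Dnajb14 (0.19). Among the members themselves the closest pair was Elane and Ms4a3 (0.35), followed by Mpo and Prtn3 (0.48). Ctsc was 3.53 or more from each of the others, and its nearest annotated gene with a protein name was Itih5 (0.47). Of the genes named here, Hgd, Dnajb14, Fer, Ifnlr1 and Stxbp6 lay below the floor on both AF4-MLL arrays. The pseudocount understates their changes, so their small distances are less sure. With 4 arrays, many genes have like profiles.

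Granzymes, the serine proteases of killer lymphocytes, are also activated by cathepsin C. Gzmb had 179 on the mixed lineage array, 26953 on the proB ALL array and 57.8 on the B/T BAL array, against 178 in normal marrow, and Gzmk had 347 (mixed lineage), 22046 (proB ALL) and 168 (B/T BAL), against 219 (normal marrow). All 5 granzymes were at least 2-fold higher than normal marrow in proB ALL, where Ctsc was 4.69-fold higher and Elane 9.85-fold lower. Gzma, however, had 54327 on the proB ALL array and 52157 on the B/T BAL array, against 1556 in normal marrow, and Ctsc had 14528 and 3010 on those arrays. In mixed lineage leukemia Ctsc had its highest signal, while 0 of the 5 granzymes were at least 2-fold higher than normal marrow. Killer-cell markers had a summed signal of 8712 on the mixed lineage array, 68125 on the proB ALL array and 1048 on the B/T BAL array, against 9437 in normal marrow, and 2 of the 5 markers exceeded the floor on the mixed lineage and B/T BAL arrays and all 5 on the others. Their part in the Ctsc signal was not tested.

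Cst7, which encodes cystatin F, an inhibitor of cathepsin C, had 4652 on the mixed lineage array, 5848 on the proB ALL array and 976 on the B/T BAL array, against 4901 in normal marrow. Serpinb6a, an inhibitor of cathepsin G, had 5002 (mixed lineage), 9144 (proB ALL) and 1217 (B/T BAL), against 3112 (normal marrow). Both were lowest in B/T BAL and highest in proB ALL. Serpinb1a, an inhibitor of elastase, proteinase 3 and cathepsin G, had 49534 (mixed lineage), 7685 (proB ALL) and 4048 (B/T BAL), against 14594 (normal marrow), and Slpi, a secreted inhibitor of elastase and cathepsin G, had 24936 (mixed lineage), 976 (proB ALL) and 3349 (B/T BAL), against 22735 (normal marrow). Srgn (serglycin), the proteoglycan that holds proteases in the granule, lay within 2-fold of normal marrow on all 3 arrays, at 45527 (mixed lineage), 29137 (proB ALL) and 20708 (B/T BAL), against 27796 (normal marrow). Of the 10 genes of protease and peroxidase handling, 1 was at least 2-fold higher and 2 lower in mixed lineage leukemia, 1 higher and 2 lower in proB ALL, and 0 higher and 4 lower in B/T BAL. Calr (calreticulin), a chaperone of the Mpo precursor, had 7251 in mixed lineage leukemia against 16776 in normal marrow, at least 2-fold lower on the array with the highest Mpo signal.

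**Figure D5:**
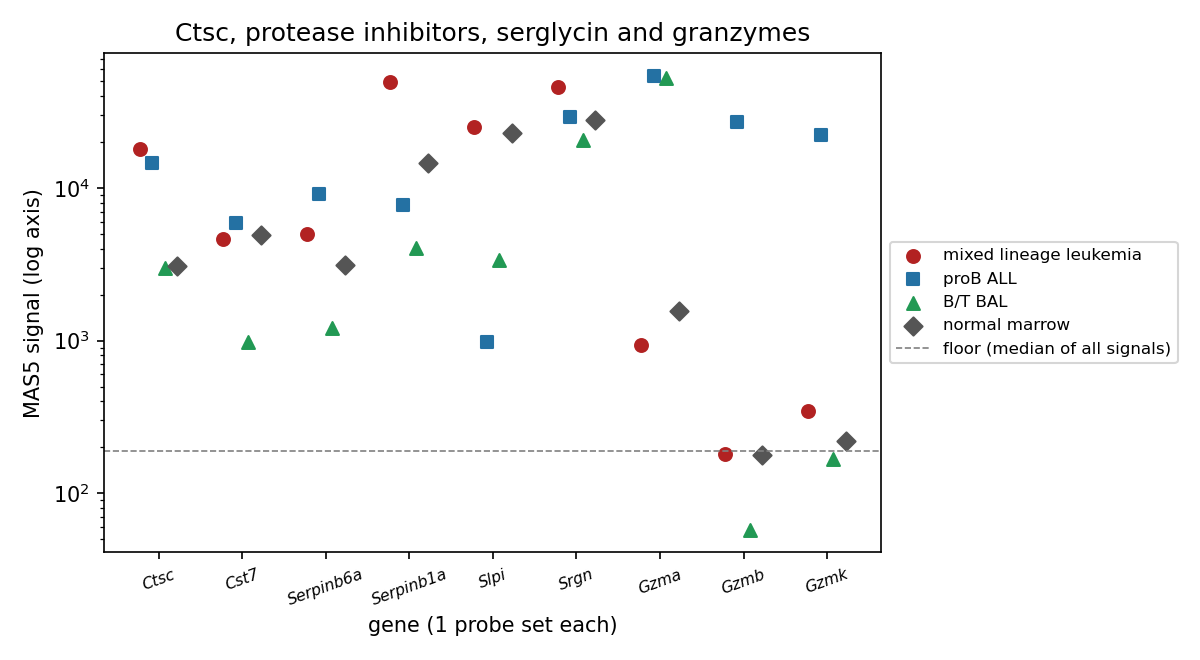
MAS5 signals (log axis) of Ctsc, of Cst7 (an inhibitor of cathepsin C), of genes that inhibit or store its substrates, and of 3 granzymes on the 4 arrays. The dashed line lies at the floor of 189. The proB ALL points are high for Ctsc (14528) and for Gzma, Gzmb and Gzmk (22046 or more), while the B/T BAL points are high for Gzma (52157) alone among the granzymes and Ctsc lies at 3010.

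Other contents and partners of the primary granule gave a mixed picture. Lyz2, the lysozyme of all granule types and of monocytes, had 71213 on the mixed lineage array, 6937 on the proB ALL array and 20315 on the B/T BAL array, against 41486 in normal marrow. Lysosomal enzymes that primary granules share with other cells, such as Gusb (7690 (mixed lineage), 9119 (proB ALL) and 7524 (B/T BAL), against 6049 (normal marrow)), did not show this span. Of the 6 measured genes of that list, 0 were at least 2-fold higher and 1 (Ctsd) lower in mixed lineage leukemia, and 2 were lower on each AF4-MLL array. Genes of the NADPH oxidase, which makes the superoxide that gives rise to the hydrogen peroxide used by Mpo, had median log2 differences of 1.07 (mixed lineage), -1.02 (proB ALL) and -1.76 (B/T BAL) from normal marrow. The median of the mixed lineage array was 0.62 under quantile normalization. Cybb, its catalytic subunit, had 63754 on the mixed lineage array, 6538 on the proB ALL array and 5063 on the B/T BAL array, against 22931 in normal marrow, a log2 difference of 1.47 on the mixed lineage array. Of the 5 oxidase genes, 3 were at least 2-fold higher in mixed lineage leukemia and 3 lower on each AF4-MLL array.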

How the data were processed

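Biotinylated cRNA of each of the 4 samples was hybridised to 1 Affymetrix array. The deposited values are intensity values, 1 linear signal per probe set. MAS5 made them, per the submitters' processing notes, with a version not stated there. The arrays shared a trimmed mean (2% off each end) of 1000.0, so no further normalization was applied. Of 45101 probe sets, 64 were controls, 34945 carried 1 gene symbol, 932 several and 9160 none in the annotation used here, and those with several or none were left out. Where a gene had several probe sets, the brightest by mean log2 stood for it. limma 3.58.1 in R 4.3.3 (lmFit, eBayes with an intensity trend, Benjamini-Hochberg over 14012 genes) compared leukemia with normal marrow and both fusions with AF4-MLL alone, and was tested on simulated data. Single arrays were compared without a test. The number of arrays limits the precision. The p-values rest on the spread between different leukemias, which limma drew toward a trend over all genes. The members and the 18 gene lists, of whose 134 genes 18 had no usable probe set, were chosen with earlier results of these data known. The rule for named genes allowed the members, any gene of the lists of regulators, receptors, protease handling, granule contents, granzymes and oxidase, up to 4 bright genes of each other list, and the nearest profiles (to the mean of the 7 measured members). The text names some of these genes, picked with their values seen, and gives the rest of each list as counts and medians. Outside that rule it also names the secondary granule genes that were lower in B/T BAL and several chromosome neighbours of the members. Alternatives varied the pseudocount, the filter, the floor, the normalization, the probe set, the moderation and the arrays.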

Additional observations from a re-analysis of the deposited data

Results flagged for a closer look

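For 6 genes the leukemia with both fusions and the leukemias with AF4-MLL alone lay on opposite sides of normal marrow. Except for Fcnb, they lay within 2-fold of normal marrow on the mixed lineage array. All 6 were at least 2-fold below normal marrow on both AF4-MLL arrays, and this combined pattern was found in 3.94% of all tested genes. The share of all genes on opposite sides by any amount was not computed. The log2 difference between mixed lineage leukemia and the AF4-MLL leukemias was 3.06 for Mpo, 3.74 for Elane, 2.90 for Prtn3, 3.06 for Ctsg, 5.41 for Fcnb and 3.58 for Ms4a3. In limma's fit over all genes the adjusted p of these differences was 0.151 to 0.187, so 0 passed the threshold. Mpo and Ctsg lay on the lower side of normal marrow in mixed lineage leukemia under quantile normalization (-0.17 and -0.06), where this opposition does not hold for them.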

How the results depend on the processing

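Among the 6 genes that share a pattern, the log2 difference from normal marrow stayed at -1.75 or lower on both AF4-MLL arrays under all alternatives run. Scaling to the 75th percentile moved the median of all tested genes in mixed lineage leukemia to 0.23, against 0.08. By its dimmest probe set the log2 difference of Ctsc was -0.91 between mixed lineage leukemia and normal marrow and -0.29 between mixed lineage leukemia and B/T BAL; 1 member was then at least 2-fold higher than normal marrow in mixed lineage leukemia, and 0 in proB ALL, as with its other alternative probe set. Between leukemia and normal marrow limma passed 0 genes (44 higher and 369 lower at an unadjusted p under 0.05), 15 lower with the pseudocount at the 50th percentile and 23 lower with robust eBayes; the cause was not tested. Leaving out 1 leukemia gave 0 to 4 higher and 0 to 109 lower genes: 4 and 67 without proB ALL, 4 and 109 without B/T BAL and 0 without mixed lineage leukemia. None of the members passed there. Between both fusions and AF4-MLL alone, raising signals below the floor to it gave 2459 higher and 62 lower genes, among them Ctsg (adjusted p = 0.0214) and Ms4a3 (adjusted p = 0.0293); over all alternatives of that fit the adjusted p was 0.0214 to 0.22 for Ctsg and 0.0293 to 0.22 for Ms4a3. That alternative gives equal values to genes below the floor on both AF4-MLL arrays, which lowers the fitted spread. No paired analysis was possible because each group has 1 array and the replicate numbers pair no samples.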

Other observations

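Several members lie beside related genes on the mouse chromosomes, and these neighbours, chosen after their values were seen, did not all share the members' pattern. Mpo is followed on chromosome 11 by other peroxidase genes. Of these, Epx (eosinophil peroxidase) had a signal of 156 on the mixed lineage array, 46.3 on the proB ALL array and 25.9 on the B/T BAL array, against 25742 in normal marrow, while Mpo had 60520 in mixed lineage leukemia. Lpo (lactoperoxidase) lay below the floor on all 4 arrays. Ctsg on chromosome 14 lies between Mcpt8 and the granzyme gene Gzme, which was below the floor on all 4 arrays. Mcpt8 was 39892 on the mixed lineage array, 238 on the proB ALL array and 1478 on the B/T BAL array, against 9174 in normal marrow. Beside Ms4a3 on chromosome 19, Ms4a2 had 4455 (mixed lineage), 30.8 (proB ALL) and 176 (B/T BAL), against 1338 (normal marrow). Next to Prtn3 on chromosome 10, Plppr3 had 436 (mixed lineage), 7.96 (proB ALL) and 23.9 (B/T BAL), against 51.3 (normal marrow), so it was highest in mixed lineage leukemia, as the members were, and below the floor on the other 3 arrays. The gene after it, Ptbp1, an RNA-binding protein of most cells, had 8207 (mixed lineage), 14059 (proB ALL) and 27266 (B/T BAL), against 13220 (normal marrow). Olfm1, which lies next to Fcnb on chromosome 2, had 1164 (mixed lineage), 502 (proB ALL) and 32.3 (B/T BAL), against 500.0 (normal marrow).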
